A study of Homo sapiens with 10 samples.

Results

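The knockdown of MAFK was compared directly with the knockdown of E2F6 in H1, an established human embryonic stem cell line. The comparison took the 4 libraries labelled shMAFK and shE2F6, 2 of each, out of the 10 libraries of the study, and all 14785 rows of the expression table: 13808 genes, 973 transposable element (TE) subfamilies and 4 transfer RNAs. The study looked for regulators of chromatin folding at TEs and measured gene expression by RNA-seq after knockdown with short hairpin RNAs (shRNAs). All groups shared the same background: wild-type H1 cells on Matrigel in mTeSR1 medium that received packaged shRNA virus and then puromycin, so each library came from a selected population and not from a clone. The groups used here received an shRNA against MAFK (shMAFK), against E2F6 (shE2F6), against SMARCA4 (shSMARCA4) or against luciferase (shLUC, the control, an enzyme gene that human cells lack). The shRNA sequences, and whether more than 1 shRNA was used per gene, are not given in the sources used here. The 2 libraries of a group are called biological duplicates in the series description, with no statement on separate infections, so the p-values measure the spread between these libraries only. That spread was estimated from the 8 libraries of these 4 groups, without the libraries of the fifth group (shKDM1A).

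MAFK is a small MAF protein. It has a basic leucine zipper that binds DNA but no transactivation domain of its own, and it acts as a homodimer that represses or as the partner of CNC factors such as NFE2L2, NFE2L1, BACH1 and BACH2 at antioxidant and MAF response elements. E2F6 is an E2F factor that lacks the retinoblastoma-binding and activation domains. It represses E2F target genes and is a DNA-binding subunit of a variant Polycomb complex, PRC1.6, which is known for the silencing of germline genes in embryonic stem cells.

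The deposited values are normalized whole numbers, and the read depth behind them is unknown. Totals were set almost equal by the normalization, and the median row stood at 594 in each of the 10 libraries. Between 11 and 20 rows were listed at 0 in each of the 4 libraries compared, and TE rows held from 14.6% to 15.1% of their totals. The SD between duplicates over all rows was 0.264 in shMAFK and 0.308 in shE2F6 on the log2 scale, against 0.275 in shLUC, 0.335 in shSMARCA4 and 0.530 in shKDM1A. Values of 1 gene can be compared across libraries, but values of different genes carry no length correction. The pluripotency genes POU5F1 and SOX2, 2 of a list of 20, were above the median row in all 4 libraries. Not all members of that list were: GDF3 stood at 152 and 106 in shMAFK, and LEFTY1 and LEFTY2 are given below. POU5F1 stood at 35710 and 35710 in shMAFK and at 30768 and 16615 in shE2F6, and SOX2 stood at 7576 and 7680 in shMAFK and at 5706 and 5367 in shE2F6. In bulk RNA, fewer cells that express a gene and less RNA of it per cell cannot be told apart.

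The targeted genes differed in the direction of their labels, and neither passed the threshold. MAFK (ENSG00000198517, GRCh38 chr7:1530714-1543043, plus strand) stood at 82 and 216 in shMAFK, at 384 and 286 in shE2F6 and at 212 and 288 in shLUC. The shMAFK libraries lay below those of shE2F6, but the second shMAFK library lay inside the range of the control. The log2 difference of shMAFK minus shE2F6 was -1.31 (SE 0.40, limma with Benjamini-Hochberg adjustment, adjusted p = 0.126). Leaving out shMAFK replicate 1 gave -0.62, and leaving out shMAFK replicate 2 gave -2.0. E2F6 (ENSG00000169016, chr2:11444375-11466177, minus strand) stood at 536 and 539 in shMAFK, at 336 and 304 in shE2F6 and at 491 and 553 in shLUC. The shE2F6 libraries were the lowest of the 6, with a log2 difference of 0.75 between shMAFK and shE2F6 (SE 0.16, adjusted p = 0.0559). It passed the threshold in 6 of 21 alternatives, with adjusted p from 0.0378 to 0.275 over all 21. The mean E2F6 value was 320 ± 22.6 (SD, n = 2) in shE2F6 and 537.5 ± 2.12 in shMAFK.

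The rows higher in shMAFK than in shE2F6 included 10 listed genes of the integrated stress response, and the lower rows included 12 of sterol synthesis and uptake. With limma and Benjamini-Hochberg adjustment over all rows, 340 rows (2.3% of 14785) had an adjusted p below 0.05, of which 169 (1.14%) were higher and 171 (1.16%) lower in shMAFK than in shE2F6. The rows higher in shMAFK had a median log2 difference of 1.08, from 0.45 to 3.82, and 101 of them differed at least 2-fold. The rows lower in shMAFK had a median of -0.97, from -5.94 to -0.58, and 81 of them differed at least 2-fold. All 340 had libraries that did not overlap between the groups, as did 50.7% of all rows. At an unadjusted p below 0.05 there were 3001 rows (20.3%), and 468 rows (3.17%) had a log2 difference of at least 1 in size with no overlap. Against shLUC, 34 rows (0.23%) passed for shMAFK and 5 (0.0338%) for shE2F6, and these counts share the control libraries. The number of rows rests on single libraries: it was 0 without shMAFK replicate 2, 13 without shE2F6 replicate 2, 96 without shE2F6 replicate 1, 137 without shMAFK replicate 1, and 97 without either shLUC library. In these fits the lone library of an arm is assumed to vary like the other groups.

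**Figure D1:**
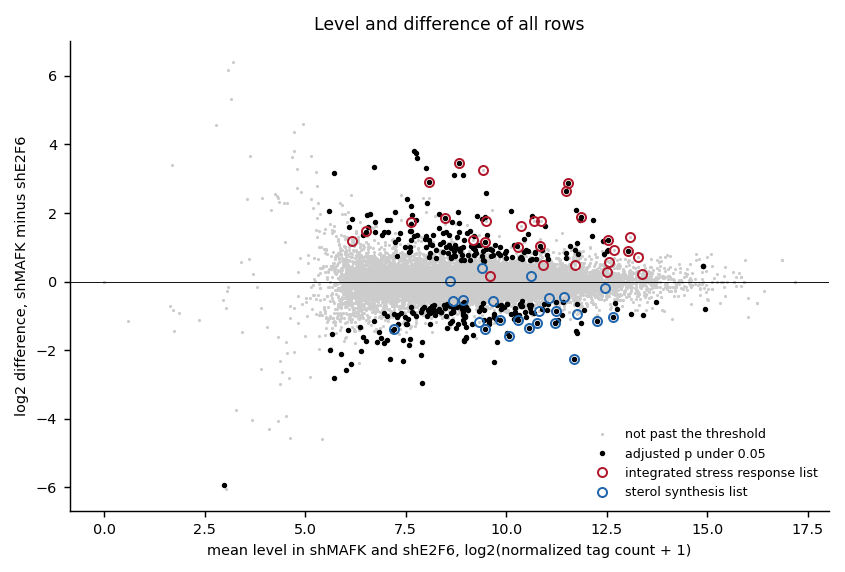
Each point is a row: the x axis is its mean log2(value + 1) over the shMAFK and shE2F6 libraries and the y axis is the log2 difference of shMAFK minus shE2F6, with the 340 rows past the threshold in black, the others in grey, and circles around the stress response (red) and sterol (blue) lists described in the text. Of the rows past the threshold 169 lie above and 171 below 0, and all 29 circles of the stress response list lie above 0.

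Genes of the integrated stress response were higher in shMAFK. This response slows translation when amino acids are short or proteins misfold, and its transcription factor ATF4 then induces genes for amino acid synthesis, transfer and import and for the response's own shut-off. Of 31 listed genes 29 were measured, and 10 were past the threshold as higher in shMAFK, against 1.14% of all rows, while 0 were past it as lower. All 29 had a log2 difference above 0, with a median of 1.21 and a range from 0.15 to 3.45, against 49.4% of all rows above 0. Both shMAFK libraries exceeded both shE2F6 libraries in 27 of the 29, which 25% of all rows did. The list was chosen with earlier results of these data known, so an excess over these shares may be built in.

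ATF5 showed the largest difference of the list. It encodes a leucine zipper factor whose translation is controlled like that of ATF4, and lies at chr19:49928702-49933935 on the plus strand (GRCh38). It stood at 1530 and 1454 in shMAFK, at 164 and 112 in shE2F6 and at 74 and 116 in shLUC. Both shMAFK libraries lay far above the other 4, which reached 164 at most. The ratio of means was 10.8 and the log2 difference 3.45 (SE 0.25, limma with Benjamini-Hochberg adjustment, adjusted p = 0.00744). Against shLUC the shMAFK libraries were also past the threshold, with an adjusted p of 0.0024 from the same model.

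Regulators of the response were among the genes past the threshold. TRIB3, a pseudokinase that feeds back on ATF4, stood at 1022 and 540 in shMAFK against 97 and 100 in shE2F6, a log2 difference of 2.90 (SE 0.42, adjusted p = 0.0252). DDIT4, an inhibitor of the growth regulator mTORC1, stood at 8497 and 7578 against 990 and 1220, a log2 difference of 2.87 (adjusted p = 0.0252). CEBPG, a dimer partner of ATF4, stood at 2934 and 2340 against 1290 and 1278, a log2 difference of 1.03 (adjusted p = 0.0381). The libraries of both groups were apart for each of these genes. ATF4 itself stood at 6647 and 6077 in shMAFK and at 5923 and 4704 in shE2F6, and its log2 difference of 0.27 was not past the threshold (adjusted p = 0.451). CHAC1, which degrades glutathione, and DDIT3, a factor tied to cell death under stress, were not past it either, with log2 differences of 3.25 (adjusted p = 0.0958) and 1.74 (adjusted p = 0.051).

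The enzymes and transporters that passed serve amino acid and one-carbon metabolism. PCK2, which makes phosphoenolpyruvate in mitochondria, stood at 8086 and 6343 in shMAFK and at 1250 and 1063 in shE2F6, with a ratio of means of 6.24. ASNS, the asparagine synthetase, stood at 7784 and 6490 against 2208 and 1662, with a log2 difference of 1.89 (SE 0.29, adjusted p = 0.0252). ALDH1L2, a mitochondrial folate enzyme, stood at 762 and 608 against 174 and 203, a log2 difference of 1.85 (SE 0.36, adjusted p = 0.0443). The groups did not overlap in any of the 3. SHMT2, which converts serine to glycine in mitochondria, was higher by 1.20 (adjusted p = 0.0381), CTH, which makes cysteine, by 1.14 (adjusted p = 0.0444), and SLC1A5, a glutamine importer, by 0.89 (adjusted p = 0.0182) on the log2 scale.

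The control libraries were apart from each other for these genes. The mean log2(value + 1) of the 29 genes was 11.44 and 11.13 in the shMAFK libraries, 9.93 and 9.77 in shE2F6, 9.61 and 10.57 in shLUC, 9.32 and 9.38 in shSMARCA4 and 11.03 and 11.09 in shKDM1A. In shLUC, replicate 2 exceeded replicate 1 in 28 of 29 genes: DDIT4 stood at 2170 and 6580 there, CHAC1 at 142 and 1436 and ASNS at 1809 and 3506. The shMAFK libraries lay above both control libraries in 27 of the 29, and the median log2 difference from shLUC was 1.09 for shMAFK and -0.25 for shE2F6. Both shMAFK libraries exceeded both shKDM1A libraries in 9 genes and lay below both in 3. Both shE2F6 libraries lay below both shKDM1A libraries in 27 of the 29. The share of all rows apart from shLUC or shKDM1A was not counted, so nothing is read from these counts. Of the 10 calls, 0 were left without shMAFK replicate 2.

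**Figure D2:**
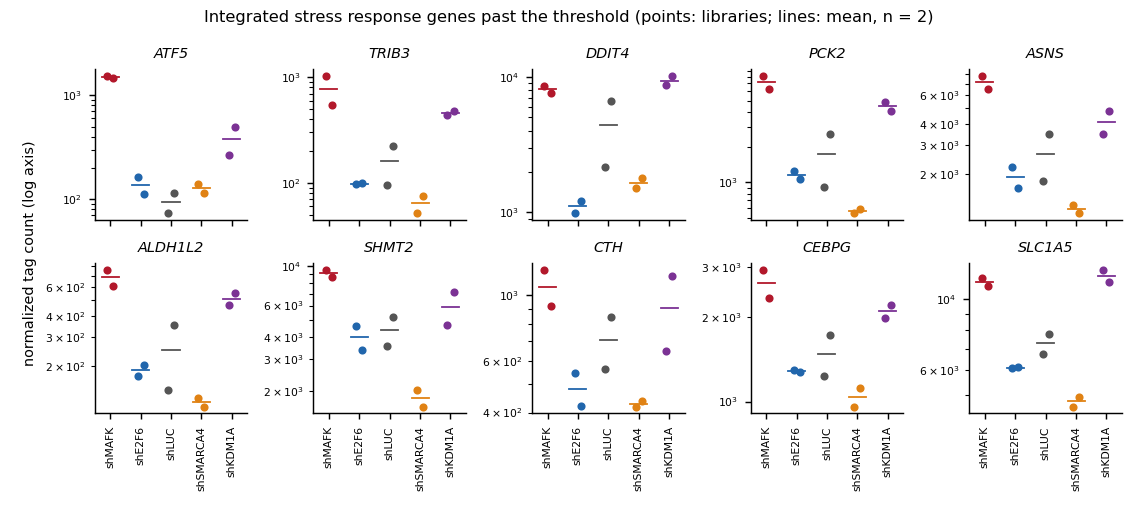
Values of the integrated stress response genes past the threshold, on a log axis, with 1 point per library, 1 colour per group and short lines for the mean of 2 libraries. In ATF5 the shMAFK points stand at 1530 and 1454 and the shE2F6 points at 164 and 112, while the shLUC points of several genes lie far from each other, as in DDIT4 at 2170 and 6580.

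The promoters of the list were searched for the C/EBP-ATF response element, the composite site that ATF4 and C/EBP factors bind together, written TGATGNAA and read on both strands. RefSeq (GRCh38.p14) windows from 250 bases before to 50 after the annotated start were found for 10800 of the 13808 genes. The element occurred in 181 of them (1.68%), in 5 of the 25 list genes with a window (20%), in 1 of 8 list genes past the threshold (12.5%) and in 6 of 135 rows higher in shMAFK (4.44%). Among the list genes the matches were in ASNS, which was past the threshold, and in ATF3, CHAC1, SLC3A2 and SLC7A1, which were not. The sequences show the 3 of them with a match upstream of the start, on the strand of the gene from 5′ to 3′, with the match in capitals. A match is a description of these letters and not of binding.
ASNS, chr7:97872449-97872496, minus strand, match starting 68 bases before the start, log2 difference 1.89: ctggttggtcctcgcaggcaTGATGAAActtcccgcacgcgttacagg
ATF3, chr1:212565196-212565243, plus strand, match starting 191 bases before the start: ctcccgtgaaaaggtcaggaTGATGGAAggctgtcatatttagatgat
CHAC1, chr15:40953242-40953289, plus strand, match in reverse complement starting 209 bases before the start, log2 difference 3.25: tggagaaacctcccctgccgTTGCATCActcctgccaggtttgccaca

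Genes of sterol synthesis and uptake were lower in shMAFK than in shE2F6. These genes share control by SREBP2, a membrane-bound factor that is cleaved and moves to the nucleus when sterols are scarce, and most encode steps of the mevalonate and cholesterol pathway. All 24 listed genes were measured, and 12 were past the threshold as lower, against 1.16% of all rows, while 0 were past it as higher. The median log2 difference was -0.99, from -2.27 to 0.41, and 21 of the 24 were below 0. In 20 both shMAFK libraries lay below both shE2F6 libraries, which 25.7% of all rows did. This list, too, was chosen with earlier results known, so an excess over these shares may be built in.

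HMGCS1, which makes the HMG-CoA from which mevalonate is formed, differed most. It lies at chr5:43289395-43313512 on the minus strand and stood at 1476 and 1534 in shMAFK, at 6490 and 8086 in shE2F6 and at 4340 and 2910 in shLUC. The 3 groups did not overlap, shMAFK lowest and shE2F6 highest. The means were 1505 ± 41.0 and 7288 ± 1129 (SD, n = 2 each), 4.84-fold lower in shMAFK, with a log2 difference of -2.27 (SE 0.25, limma with Benjamini-Hochberg adjustment, adjusted p = 0.0131).

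The steps after mevalonate followed the same order. MVK, the mevalonate kinase, stood at 108 and 77 in shMAFK and at 224 and 254 in shE2F6 (log2 difference -1.38, adjusted p = 0.0254). MVD, which yields the isoprene unit, stood at 608 and 634 against 1363 and 2555 (-1.59, adjusted p = 0.0264), and the isomerase IDI1 at 574 and 672 against 1353 and 1343 (-1.12, adjusted p = 0.0381). No library of shMAFK reached one of shE2F6 in these 3 genes. FDFT1, the squalene synthase, stood at 3583 and 3046 against 7440 and 7097 (log2 difference -1.14, SE 0.15, adjusted p = 0.0178). SQLE, the squalene epoxidase, stood at 1680 and 1476 against 3966 and 3314 (-1.20, adjusted p = 0.0321). The later enzymes LSS, CYP51A1 and DHCR7, which close and trim the sterol ring system and reduce a double bond in it, had log2 differences of -0.87, -1.21 and -1.34, with adjusted p-values of 0.0438, 0.043 and 0.0392.

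The feedback arm of the pathway showed the same order. INSIG1, which holds SREBP precursors in the endoplasmic reticulum and is itself an SREBP target, stood at 419 and 460 in shMAFK, at 1070 and 1212 in shE2F6 and at 1124 and 848 in shLUC. Its log2 difference was -1.37 (SE 0.16, adjusted p = 0.0143), and shMAFK was also past the threshold against shLUC in the same model (adjusted p = 0.0428). Transcripts of the regulators themselves were not past the threshold: SREBF2, which encodes SREBP2, had a log2 difference of -0.19 (adjusted p = 0.486), and SREBF1 one of 0.17.

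The control lay between the knockdowns for all 12 genes past the threshold, and nearer to shE2F6. Genes chosen because 2 groups differ tend to leave any other group between them, so nothing is read from this. Both shMAFK libraries were below both shLUC libraries in 12 of the 12 and in 19 of all 24 genes. Both shE2F6 libraries were above both shLUC libraries in 9 of the 12 and in 11 of the 24. In each comparison 1 of the 24 went the other way. The share of all rows apart from shLUC was not counted, so nothing is read from these counts. Against shLUC, 1 of the 24 was past the threshold for shMAFK and 0 for shE2F6. The mean log2(value + 1) of the 24 genes was 10.05 and 9.92 in shMAFK, 10.81 and 10.90 in shE2F6, 10.72 and 10.43 in shLUC, 11.19 and 10.94 in shSMARCA4 and 10.38 and 10.40 in shKDM1A. The shMAFK libraries were thus the lowest of the 10 for the list mean. Of the 12 calls, 0 were left without shMAFK replicate 2, and the median stayed between -1.03 and -0.87 under all alternatives.

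**Figure D3:**
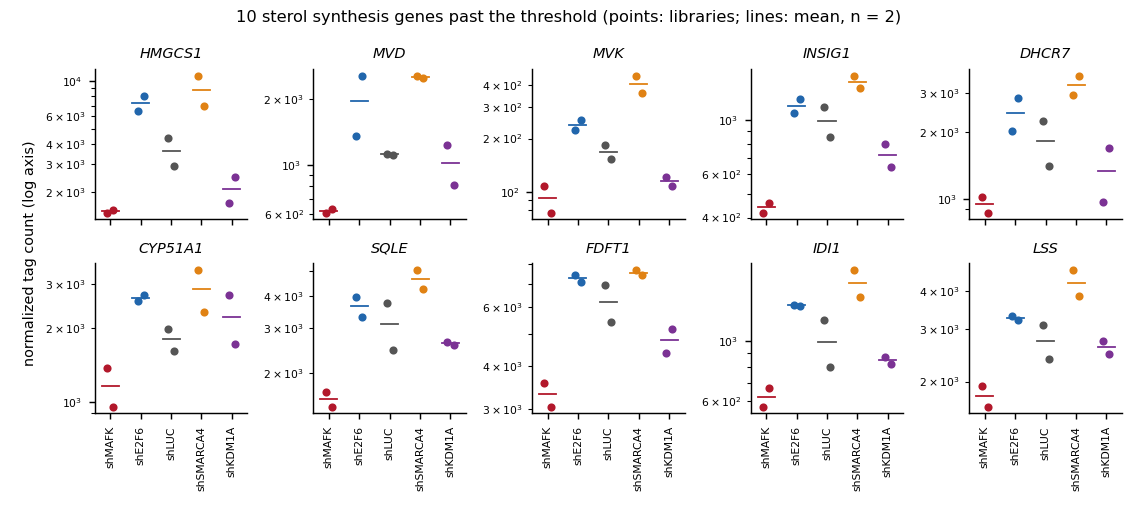
Values of 10 of the 12 sterol genes past the threshold, on a log axis, with 1 point per library and 1 colour per group. Short lines are means of 2 libraries, and the shMAFK points lie below the shE2F6 and shLUC points in each gene, as in HMGCS1 at 1476 and 1534 against 6490 and 8086 in shE2F6.

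The control placed most of the 340 rows between the knockdowns. On a scale where 0 is the shE2F6 mean and 1 the shMAFK mean, on log2 values, the shLUC mean lay between them in 304 rows, past shE2F6 in 31 and past shMAFK in 5. It was nearer to shE2F6 in 240 rows and nearer to shMAFK in 100, with a median position of 0.355. Rows chosen because 2 groups differ tend to leave any other group between them, so nothing is read from this count alone. Of the 169 rows higher in shMAFK, the median log2 difference from shLUC was 0.69 for shMAFK and -0.45 for shE2F6, and of the 171 lower rows it was -0.67 and 0.34. In 222 rows both knockdowns were apart from both control libraries, in 97 shMAFK alone and in 21 shE2F6 alone. With 2 libraries per group such gaps are common: 50.7% of all rows had no overlap between shMAFK and shE2F6. The share of all rows apart from shLUC was not counted, so nothing is read from these counts. At an unadjusted p below 0.05 in the same model, 282 of the 340 differed from shLUC in shMAFK, against 14.5% of all rows. In shE2F6 the count was 153, against 9.67% of all rows. With adjustment over all rows the counts were 21 and 2. The same libraries chose the 340 rows, so an excess over these shares is built in and nothing is read from it.

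**Figure D4:**
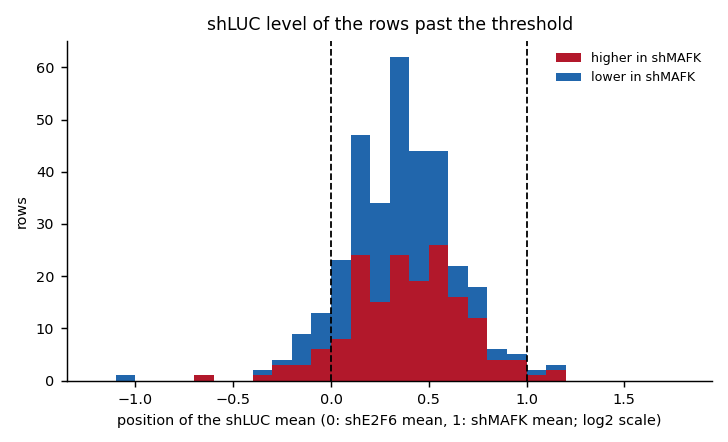
Histogram of the position of the shLUC mean for the 340 rows past the threshold, on the log2 scale from the shE2F6 mean (0) to the shMAFK mean (1), with the number of rows on the y axis and the bars of rows higher and lower in shMAFK stacked. Most rows, 304, lie between 0 and 1, with a median of 0.355.

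Beyond these groups, the 15 largest rises in shMAFK over shE2F6 held several developmental factors. SOX21, a SOX factor of neural progenitors, stood at 728 and 912 in shMAFK, at 110 and 59 in shE2F6 and at 454 and 392 in shLUC (log2 difference 3.32, adjusted p = 0.0079). IRX2, an Iroquois homeobox factor, stood at 1166 and 1760, at 151 and 182 and at 501 and 728 (3.10, adjusted p = 0.0074). FOXI3, a forkhead factor of craniofacial ectoderm, stood at 348 and 524, at 79 and 80 and at 144 and 164 (2.41, adjusted p = 0.009). In each of the 3 the control lay between the knockdowns and overlapped neither. CUZD1 stood at 1022 and 1476 in shMAFK, at 136 and 148 in shE2F6 and at 640 and 1158 in shLUC, a log2 difference of 3.10 (adjusted p = 0.0079). For CUZD1 the shMAFK libraries overlapped the control, and shE2F6 was past the threshold against it (adjusted p = 0.0315). NPTX1, a secreted neuronal pentraxin, stood at 1318 and 2374 against 198 and 438 (2.58, adjusted p = 0.026), with shLUC at 1076 and 1048.

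The same set held MEF2B, a MADS-box factor, at 1073 and 582 in shMAFK and 54 and 56 in shE2F6 (log2 difference 3.82, adjusted p = 0.0266). Its read-through gene BORCS8-MEF2B (3.61, adjusted p = 0.0252) overlaps it, so the reads of both cannot be told apart. INHBE, an activin subunit gene, stood at 985 and 645 against 80 and 42 (3.76, adjusted p = 0.0489). The control libraries stood at 57 and 419 for INHBE and at 38 and 180 for MEF2B, so they were apart from each other as in the stress response genes. APC2, a relative of the WNT regulator APC, stood at 348 and 320 against 30 and 34 (3.35, adjusted p = 0.0143). GADD45G, a stress and growth arrest gene, and SMIM10L2A had log2 differences of 3.18 (adjusted p = 0.0443) and 2.28 (adjusted p = 0.0112). The 4 remaining genes of this set were ATF5, TRIB3, DDIT4 and PCK2.

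Among the 15 largest falls, the noncoding RNA LINC01867 was listed at 0 in both shMAFK libraries, at 83 and 44 in shE2F6 and at 44 and 53 in shLUC (adjusted p = 0.009). MDFI, an inhibitor of myogenic basic helix-loop-helix factors, stood at 116 and 62 in shMAFK, at 852 and 531 in shE2F6 and at 580 and 564 in shLUC. Its log2 difference was -2.97 (adjusted p = 0.0143), and shMAFK was past the threshold against shLUC as well (adjusted p = 0.0356). SPIB, an ETS factor of lymphoid cells, stood at 22 and 16 against 157 and 123, with the control at 51 and 54 (-2.82, adjusted p = 0.0143). All 3 were lower in shMAFK than in shE2F6 and shLUC, with no overlap. IQSEC2, an exchange factor for ARF GTPases, stood at 442 and 308 in shMAFK and at 1884 and 1866 in shE2F6, with shLUC at 1308 and 862 (-2.34, adjusted p = 0.0141). FOXP4, a forkhead factor, stood at 76 and 77 against 300 and 495, with shLUC at 264 and 282 (-2.32, adjusted p = 0.0143). PLA2G3, a secreted phospholipase, stood at 108 and 113 against 499 and 491, with shLUC at 331 and 255 (-2.15, adjusted p = 0.009). All 3 were lower in shMAFK than in each control library. THEM6, HHLA1, TPGS1, CYP2B6, MYORG, AC073172.2, LINC01108 and CNIH2 completed the set with HMGCS1, with log2 differences between -2.58 and -1.79.

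BACH2 was the one gene past the threshold among the partners and targets tied to MAFK. Of 8 small MAF and CNC genes measured 1 was past the threshold, against 2.3% of all rows, and their median log2 difference was 0.19. BACH2, a repressor that pairs with small MAF proteins, stood at 194 and 214 in shMAFK and at 86 and 65 in shE2F6 (1.43, SE 0.24, adjusted p = 0.0308). NFE2L1, the CNC factor of proteasome genes, stood at 7784 and 6746 against 4390 and 3429 (0.90, adjusted p = 0.0734). Of 23 antioxidant response genes 0 were past the threshold in limma and 7 had an unadjusted p below 0.05, against 20.3% of all rows, with a median of -0.16. HMOX1, the haem oxygenase that BACH1 and small MAF proteins repress, stood at 297 and 183 in shMAFK and at 488 and 430 in shE2F6 (-0.97, adjusted p = 0.0572). The shLUC libraries stood at 238 and 228 for HMOX1, inside the shMAFK range and below both shE2F6 libraries. Against shLUC, HMOX1 was not past the threshold in shE2F6 (limma, adjusted p = 0.302). The peroxidase PRDX1 had a log2 difference of -0.48 (adjusted p = 0.0511). Against shLUC, the PRDX1 difference was -0.09 for shMAFK and 0.38 for shE2F6.

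The complexes and targets tied to E2F6 held 0 genes past the threshold in limma. Among 14 PRC1.6 subunits and 13 genes of the E2F and retinoblastoma family the medians were 0.05 and -0.03, and 1 gene in each, E2F6 itself, had an unadjusted p below 0.05. The next smallest p-values belonged to PCGF6, the Polycomb ring finger of the complex (0.25, adjusted p = 0.342), and RBL2, a pocket protein (-0.28, adjusted p = 0.289). Of 12 germline genes, the class that PRC1.6 silences, DAZL stood at 126 and 142 in shMAFK and at 50 and 72 in shE2F6 (1.14, adjusted p = 0.0812). The shLUC libraries stood at 78 and 76 for DAZL, a log2 difference from shLUC of 0.79 for shMAFK and -0.35 for shE2F6. The germline list median was 0.05, with 4 genes at an unadjusted p below 0.05. The testis gene PIWIL2 had a log2 difference of 0.50 (adjusted p = 0.113). Of the 12 germline genes 6 had a log2 difference above 0 and 6 below, down to -0.91, and of the 4 genes with the smallest p 2 were higher and 2 lower. The 35 DNA replication genes had a median of -0.04 and the 20 mitotic genes one of -0.16, with 0 past the threshold in limma. At an unadjusted p below 0.05 there were 5 and 3, of which 1 and 0 were higher in shMAFK. Over all rows 20.3% were at that unadjusted level and 2.3% past the threshold.

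Among the developmental and signalling lists, genes past the threshold went in both directions. Of 17 FGF and ERK pathway genes 14 had an unadjusted p below 0.05, 6 of them higher and 8 lower in shMAFK, against 20.3% of all rows, and 3 were past the adjusted threshold, against 2.3%. FGFR3, a receptor, stood at 634 and 1259 in shMAFK and at 285 and 168 in shE2F6 (2.02, adjusted p = 0.0286), while the related receptor FGFR4 stood at 1704 and 1428 against 2405 and 2545 (-0.67, adjusted p = 0.0445). DUSP5, a phosphatase that shuts off ERK and is induced by it, stood at 408 and 278 against 1134 and 872 (-1.56, adjusted p = 0.0252). The 2 receptors thus differed in opposite directions, and the list median was -0.12. ZIC2, an ectoderm marker, stood at 7442 and 9058 in shMAFK, at 4392 and 4262 in shE2F6 and at 8497 and 9298 in shLUC (0.92, adjusted p = 0.0286). The shE2F6 libraries lay below both control libraries, but ZIC2 was not past the threshold in shE2F6 against shLUC (limma, adjusted p = 0.106). KDR, a mesoderm marker and receptor for VEGF, stood at 3429 and 2512 against 5235 and 5300 (-0.84, adjusted p = 0.043). Of 20 pluripotency genes 0 were past the threshold in limma, with a median of 0.06. An unadjusted p below 0.05 was reached by 7, 3 higher and 4 lower, against 20.3% of all rows. The NODAL targets LEFTY1 and LEFTY2 stood at 12 and 1 and at 4 and 2 in shMAFK, and at 191 and 74 and at 137 and 42 in shE2F6, with adjusted p-values of 0.105 and 0.0696. GDF3, a ligand of the same family, stood at 152 and 106 against 430 and 434 (-1.76, adjusted p = 0.0604). The endoderm marker CER1, also induced by NODAL, stood at 9 and 0 against 57 and 45 (adjusted p = 0.136). Of the 5 fibroblast, 4 trophoblast and 3 endoderm markers measured 0 were past the threshold in limma, with 2, 4 and 1 at an unadjusted p below 0.05. That level was met by 20.3% of all rows. The 2 fibroblast genes split into 1 higher and 1 lower, the 4 trophoblast genes into 2 and 2, and the endoderm gene was lower.

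Of 26 p53 targets 19 had a log2 difference above 0, against 49.4% of all rows. The p53 list median was 0.27, and 1 gene was past the threshold, against 2.3% of all rows. It was BBC3, which encodes the pro-death protein PUMA and stood at 695 and 985 in shMAFK and at 436 and 390 in shE2F6 (1.00, adjusted p = 0.0432). CDKN1A, the best known p53 target, stood at 360 and 1170 in shMAFK and at 364 and 320 in shE2F6, so the shMAFK duplicates were themselves apart. Of 14 interferon response genes BST2, a membrane protein that tethers viruses, was past the threshold. It stood at 1050 and 1526 in shMAFK, at 370 and 346 in shE2F6 and at 614 and 710 in shLUC (1.82, SE 0.19, adjusted p = 0.00975). The list median was -0.15, and BST2 was the single interferon gene past the threshold in either direction. Glycolysis genes (26 measured, median -0.20) and mitochondrial chaperones and proteases (10 measured, median 0.02) held 0 past it in limma. At an unadjusted p below 0.05 the former held 9 and the latter 3, against 20.3% of all rows. PGK1 was nearest in the former (-0.82, adjusted p = 0.057) and HSPA9 in the latter (0.65, adjusted p = 0.0549). Over all 21 lists, 30 of 312 measured genes were past the threshold, 15 in each direction, against 2.3% of all rows. The stress response list held 10 of the 30 and the sterol list 12, and both lists were chosen with earlier results known.

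**Figure D5:**
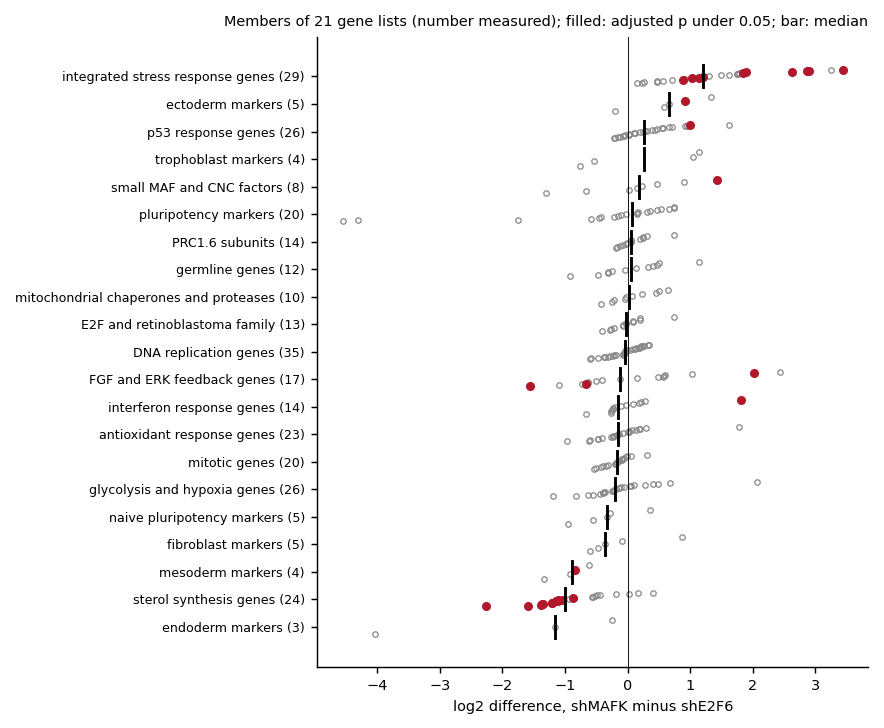
Log2 differences of shMAFK minus shE2F6 for the measured members of each list, 1 point per gene, with the list median marked and genes past the threshold filled. The stress response list lies above 0 in all 29 genes and the sterol list below 0 in 21 of 24, while the other lists lie on both sides of 0, except the 4 mesoderm and 3 endoderm markers, which lie below it.

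Transposable elements, the subject of the wider study, held HERVK-int and MER48 past the threshold. Of the 973 TE rows 2 were past the threshold (0.206%), against 338 of 13808 genes (2.45%), and the median size of the log2 difference was 0.11 for TE rows and 0.21 for genes. No test of this difference in share was run. HERVK-int, the internal part of the HERV-K provirus, stood at 6012 and 8496 in shMAFK, at 2282 and 3474 in shE2F6 and at 3780 and 3780 in shLUC. The knockdowns lay on opposite sides of the control, with a log2 difference of 1.34 (SE 0.26, adjusted p = 0.0443). MER48, an ERV1 long terminal repeat, stood at 203 and 178 in shMAFK, at 345 and 290 in shE2F6 and at 268 and 246 in shLUC (-0.73, SE 0.15, adjusted p = 0.0489). AluSq2 stood at 41804 in both shMAFK libraries and at 30768 in both shE2F6 libraries (0.44, adjusted p = 0.0503), where the normalization leaves only a few steps between values. Of 48 Alu subfamilies 40 had a log2 difference above 0, with a median of 0.20, 7 had an unadjusted p below 0.05 and 0 passed. Over all rows 49.4% were above 0 and 20.3% had an unadjusted p below 0.05. Alu rows held 3.60% and 4.19% of the total in shMAFK, against 3.43% and 3.15% in shE2F6 and, in the control, 3.33% and 3.53%. Without overlap 24 Alu rows were higher and 1 lower, and of 274 ERV1 rows 36 were higher and 78 lower, with an ERV1 median of -0.05; over all rows the shares were 25% higher and 25.7% lower. How reads were shared between TE copies and the genes around them is not given in the sources used here. Both TE calls were lost when the spread was taken from all 10 libraries or from the 4 libraries alone.

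The promoters of the 260 matched genes past the threshold were also searched for letters of other elements, on both strands and with overlaps between elements allowed. The antioxidant element core TGACNNNGC occurred in 13 of 135 genes higher in shMAFK (9.63%) and 21 of 125 lower (16.8%), against 14.7% of all 10800 promoters. The E2F core TTCCCGC occurred in 17 higher (12.6%) and 12 lower (9.6%), against 10.4%. The E-box CACGTG occurred in 16 higher (11.9%) and 14 lower (11.2%), against 10% of all. The sterol element letters TCACNCCAC occurred in 1 of 18 sterol genes with a window (5.56%) and in 0 of the 8 past the threshold, against 1.12% of all. These shares are descriptions of 1 window per gene and draw nothing about the factors.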

How the data were processed

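The deposited table holds whole-number scores normalized by the authors, with 1 column per library and an abbreviated unit that is read here as normalized tag counts. The submitters' processing notes name STAR, STARsolo and hg38 without their roles; the counting, the annotation and the normalization are not given in the sources used here. Gene positions are from GENCODE release 29 on GRCh38. The deposited table of group means was not used.

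Values were analysed as log2(value + 1), so fold changes of low rows are understated. A minimum mean of 10 per row removed 0 rows. The model, fitted with limma 3.58.1 (R 4.3.3), used moderated two-sided tests whose variance prior followed the mean level, on the 8 libraries of shMAFK, shE2F6, shLUC and shSMARCA4 with 4 residual degrees of freedom, and Benjamini-Hochberg adjustment ran over all 14785 rows with a threshold of 0.05. Every adjusted p in the text is from this model unless another is named. shKDM1A was left out of it by the rule set for this comparison, and its duplicates differed most. The procedure was tested on simulated data. Tables used Python 3.11.15 and pandas 2.3.3, and plots used matplotlib 3.10.9.

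Genes were named by a rule: the targets and their families, the 15 largest differences in each direction among rows past the threshold whose higher group averaged 50 or more and whose libraries did not overlap, list members past the threshold, the 3 TE rows with the smallest p, and up to 2 members of each list with the smallest p. The members, the 21 lists and the rule were chosen with earlier results of these data known. Other list members given for background (such as ATF3, ATF4, CHAC1, DDIT3, SREBF1, SREBF2, LEFTY1, LEFTY2, POU5F1, SOX2 and CDKN1A) were named after their values were seen. Some items are not reported here.

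Replicate numbers were not used to pair the libraries, since the labels do not say that they mark a shared day or batch. Deviations of same-numbered libraries correlated across rows at 0.076 between shMAFK and shE2F6, and at -0.050 to 0.337 over the 6 pairs of groups. The highest value was between shE2F6 and shSMARCA4, both in the model, and its cause was not tested. The main count depends on this choice, and the count with the replicate block is given below. Alternatives covered the pseudocount, the filter, rescaling, quantile normalization, how the variance was modelled, which libraries were fitted, the replicate block and leaving out each library.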

Additional observations from a re-analysis of the deposited data

How the results depend on the processing

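The number of rows past the threshold between shMAFK and shE2F6 (340) was 190 with no mean-variance trend, 72 with all 10 libraries, 53 with only the shMAFK and shE2F6 libraries, and 468 when counted as non-overlapping rows with a log2 difference of at least 1. Leaving out 1 library gave 0 to 354. With the replicate number as a block it was 686, which held all 340 rows; TE rows numbered 6, list genes 50 and rows of shMAFK against shLUC 187 under that block. The 2 TE rows became 1 with a pseudocount of 0.5, 0 with no trend, with all 10 libraries and with only the 4, and 0 to 2 leaving out 1 library. The 30 list genes became 17 with no trend, 13 with all 10 libraries, 19 with only the 4, and 0 to 33 leaving out 1 library. E2F6 kept its log2 difference of 0.75 and passed the threshold with robust eBayes (adjusted p = 0.0494), with only shMAFK, shE2F6 and shLUC in the model (0.0378), with group weights (0.0444), with the replicate block (0.0429) and without shSMARCA4 replicate 1 (0.0392) or 2 (0.0380), and it lay between 0.68 and 0.82 leaving out 1 library. MAFK was not past the threshold in any alternative, with adjusted p from 0.108 to 0.339. The 34 rows of shMAFK against shLUC became 75 after rescaling to the median, 16 with no trend, 82 with robust eBayes, 2 with all 10 libraries, 277 with group weights, and 1 to 31 leaving out 1 library. The 5 rows of shE2F6 against shLUC became 0 with no trend and with all 10 libraries, and 0 to 8 leaving out 1 library. The shLUC mean lay between the knockdowns in 277 to 306 and nearer shE2F6 in 194 to 267 of the 340 rows leaving out 1 library. No value changed direction. The cause of these shifts was not tested. Of the 57 named rows past the threshold, 28 kept the call with all 10 libraries, 36 with no trend, 25 with only the 4 libraries and 0 without shMAFK replicate 2. The read depth behind the values is unknown, so no limit from counting can be given.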

Other observations

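Further rows past the threshold, which lie outside the lists and were picked after their values were seen, are given here. TXNIP, an inhibitor of thioredoxin and of glucose uptake, stood at 2967 and 3262 in shMAFK, at 864 and 794 in shE2F6 and at 2296 and 3474 in shLUC (log2 difference 1.91, limma with Benjamini-Hochberg adjustment, adjusted p = 0.009). Its relative ARRDC4 stood at 1186 and 1189, at 330 and 304 and at 626 and 1038 (1.90, adjusted p = 0.0143). In shMAFK, TXNIP lay within the range of the control and ARRDC4 above it, and both were lowest in shE2F6. 3 single genes of lipid metabolism, with no list tested, are given next. ACSS2, which makes acetyl-CoA from acetate, stood at 348 and 247 against 728 and 1105 (-1.61, adjusted p = 0.0252), and ACSL1, which activates fatty acids, stood at 158 and 203 against 410 and 436 (-1.23, adjusted p = 0.021). The fatty acid synthase FASN stood at 25026 and 23459 in shMAFK and at 41812 in both shE2F6 libraries (-0.79, adjusted p = 0.009), where values fall on a few steps. Beside the stress response list, the tryptophan transfer RNA ligase WARS stood at 5708 and 4704 in shMAFK and at 2664 and 2098 in shE2F6 (1.13, adjusted p = 0.0252).

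Some abundant rows outside any list also differed. The linker histone gene H1F0 stood at 8220 and 8852 in shMAFK, at 2450 and 2462 in shE2F6 and at 3452 and 4390 in shLUC (1.80, SE 0.15, adjusted p = 0.0074). MALAT1, a nuclear noncoding RNA, stood at 7784 and 6343 against 1324 and 2022 (2.10, adjusted p = 0.0153). CCND1, the cyclin of early G1, stood at 5846 and 7919 against 2430 and 1572 (1.80, adjusted p = 0.0308). The BMP targets ID1 and ID4 had log2 differences of 1.24 (adjusted p = 0.0273) and 1.35 (adjusted p = 0.0266). ERVH48-1, a gene derived from a retrovirus, stood at 376 and 218 against 980 and 828 (-1.65, adjusted p = 0.0266), and the TE row HERVH48-int, which may share its reads, stood at 572 and 598 against 936 and 844 (-0.60, adjusted p = 0.056).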
